A study of Mus musculus with 14 samples.

Results

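The oocyte genes described here are 42 genes whose transcripts are made in the growing mouse oocyte or, more widely, in germ cells. These 42 genes are not all limited to germ cells, and *Slbp* and *Spin1*, for example, were also abundant in the spleen. They were taken by name: the zona pellucida genes, the oocyte growth factors, the maternal-effect genes, the oocyte transcription factors, the germ cell RNA-binding genes and other genes with high oocyte expression. All 42 were found among the 18603 genes of the ovary table, and all 42 reached a normalized count of 10 in 3 or more ovaries, so that none was lost to the filter on low values. Poly(A) RNA of the ovary (3 wild-type mice, 3 L2-fKO mice) was compared for all of them, and RNA of the spleen (4 mice of each genotype) for those expressed there, with 1 animal per library. The L2-fKO mice, called L2-cKO in the labels, have the genotype Zfp36l2-/-;CMV-Cre: exon 2 of *Zfp36l2* lay between loxP sites and was removed from both alleles by Cre. The controls were wild-type littermates with intact copies of *Zfp36l2* that also carried the CMV-Cre transgene. The CMV promoter drives Cre in the early embryo and in germ cells, and the study reports deletion in all tissues, with PCR on the ovary among others. The gene is therefore taken to be absent from oocytes and somatic cells of the ovary alike, which was not measured by cell type. All ovaries are from females, and of the spleens 2 wild-type and 1 L2-fKO are from females. The study's text calls the animals of the ovaries age-matched and those of the spleens age-matched pairs, and the labels give no age for any ovary. The study describes its L2-fKO animals as pups that died early in life, and it calls the L2-fKO ovary of its histology neonatal. The ovaries are therefore not those of adults. L2-fKO ovary 1 and L2-fKO spleen 3 come from the same animal. The labels name the spleen material "Spleen Organoid", and 2 wild-type spleens share the number 3, of which 1 is called wild-type spleen 4 here.

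An oocyte grows inside a follicle while it is arrested in meiotic prophase, and during this growth it stores the mRNAs and proteins on which the embryo depends until its own genome is active. It builds the zona pellucida, a glycoprotein coat that sperm bind, and it secretes growth factors that act on the granulosa cells around it. Transcription factors such as FIGLA, NOBOX, LHX8 and SOHLH1 run the oocyte programme at the primordial and primary follicle stages. ZFP36L2 is a zinc finger protein that binds AU-rich elements in 3′UTRs, with the 7-mer UAUUUAU as its known site, and promotes decay of the bound mRNA. The pentamer AUUUA is the core of AU-rich elements in general and is not by itself taken as a ZFP36L2 site here. ZFP36L2 is known for a role in female fertility.

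The ovary libraries held 31052510 to 44270070 reads on genes and the spleen libraries 39138010 to 45167464. *Zfp36l2* had normalized counts of 4868, 4906 and 4745 in the wild-type ovaries and 758, 1011 and 1009 in the L2-fKO ovaries, a log2 fold change of -2.40 ± 0.12 (SE, n = 3 and 3), and the log2 fold change in the spleen was -4.08. The source of the *Zfp36l2* reads that remain in the L2-fKO ovaries was not tested. L2-fKO ovary 2 stood apart from the other ovaries. In this library 510 genes (2.76% of 18504 tested) lay more than 2-fold outside the range of the other 5 ovaries, against 28 to 151 genes for each of the others. Meiotic prophase genes, which are germ cell genes, and markers of granulosa cells moved with it. The summed level of 19 meiotic prophase genes was 976 RPM (recovered reads scaled to the same total in every library) in L2-fKO ovary 2 and 435 to 532 in the other 5 ovaries, and 17 of these genes were highest in it. The summed level of 17 granulosa cell markers was 2512 RPM in it and 3969 to 4690 in the others, and 12 of these were lowest in it. Their part in the values of the oocyte genes was not tested, and values without L2-fKO ovary 2 are given below for the genes and sums whose overlap, direction or size moves with it. In RNA from whole ovaries, fewer oocytes and less RNA per oocyte cannot be told apart.

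The summed transcripts of the oocyte genes overlapped between the genotypes through L2-fKO ovary 2, while single genes lay on either side. Together they took 12651, 12790 and 13625 RPM in the wild-type ovaries and 13801, 13055 and 14145 in the L2-fKO ovaries (13022 ± 527 and 13667 ± 557, SD, n = 3 and 3), so that L2-fKO ovaries 1 and 3 were above every wild-type ovary and L2-fKO ovary 2 was within the wild-type range. A gene was called when limma gave a p below 0.05 after Benjamini-Hochberg adjustment over every gene tested and its log2 fold change was above 1 or below -1. By these limits 0 of the 42 oocyte genes were called higher in the L2-fKO ovary, where 0.73% of all genes were, and 0 were called lower, where 0.227% of all genes were. With the adjusted p as the only limit 1 oocyte gene passed, *Khdc3*, which was higher, against 1.23% of all genes higher and 0.351% lower. At an unadjusted p below 0.05, 7 oocyte genes were higher and 10 lower, against 9.88% and 6.95% of all genes. edgeR on the recovered reads also called 0 in either direction, and DESeq2 called 3 higher and 2 lower, against 1.54% and 0.652% of all genes by DESeq2.

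The fold changes of the oocyte genes spread widely. Of the 42, 2 had a log2 fold change above 1 and 5 had one below -1, which is 16.7% of them, against 4.15% of all genes. Their median log2 fold change was -0.07, that of all genes -0.004, and the median without regard to sign was 0.31 against 0.16. In 20 of the 42 the wild-type and L2-fKO ovaries did not overlap, 9 higher and 11 lower, against 25.2% of all genes (13.2% higher and 12.0% lower). L2-fKO ovary 2 gave the highest value of the 6 ovaries for 14 oocyte genes and the lowest for 21, so that 35 of the 42 (83.3%) had an extreme there, against 58.5% of all genes. Without this library 15 oocyte genes were higher and 16 lower in both remaining L2-fKO ovaries than in every wild-type ovary, against 17.2% and 17.4% of all genes. The adjusted p was then below 0.05 for 4 that were higher and 2 that were lower, against 1.5% and 0.733% of all genes, and 1 in each direction (*Sycp3* and *Bcl2l10*) also passed the fold limit, against 0.629% and 0.388%. The median log2 fold change was then -0.03. Past the fold limit were then *Sycp3* (1.42), *Bcl2l10* (-1.501) and *Obox1* (-1.003). *Lhx8* (0.81), *Mos* (-0.92), *Obox5* (-0.93) and *Bmp15* (-0.60), past it with all ovaries, no longer were. The share of all genes past the fold limit alone was not counted without this library.

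**Figure D1:**
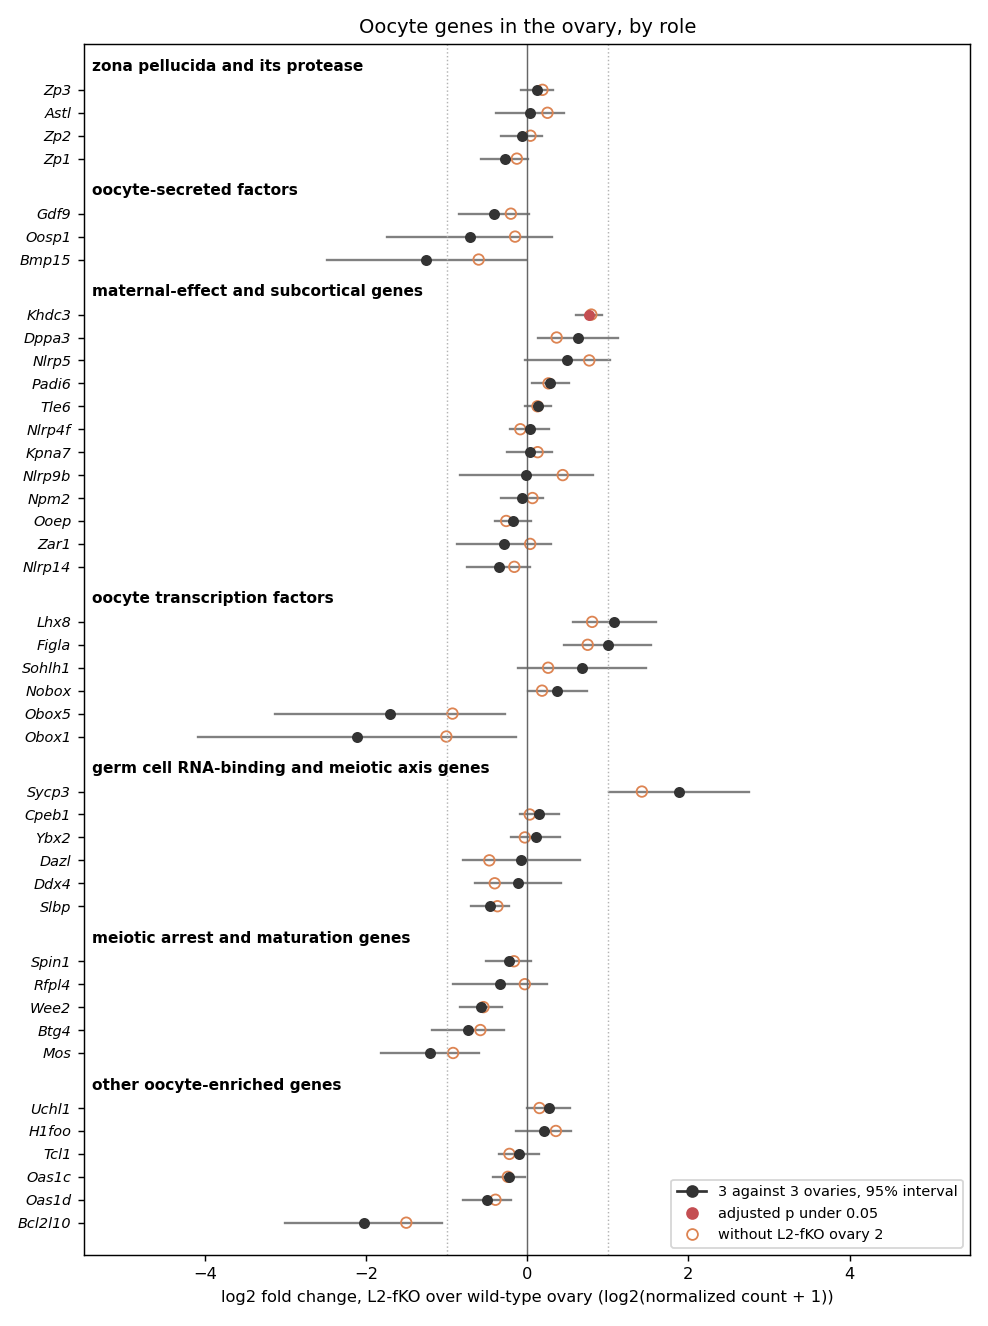
Log2 fold change (L2-fKO over wild-type ovary, on the log2(normalized count + 1) scale) of each of the 42 oocyte genes, grouped by role, with the 95% interval of limma as a line, and open circles for the value without L2-fKO ovary 2. *Khdc3*, in red, is the gene with an adjusted p below 0.05, while *Obox1*, *Bcl2l10* and *Sycp3* lie farthest from 0 and move towards it without that library.

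**Figure D2:**
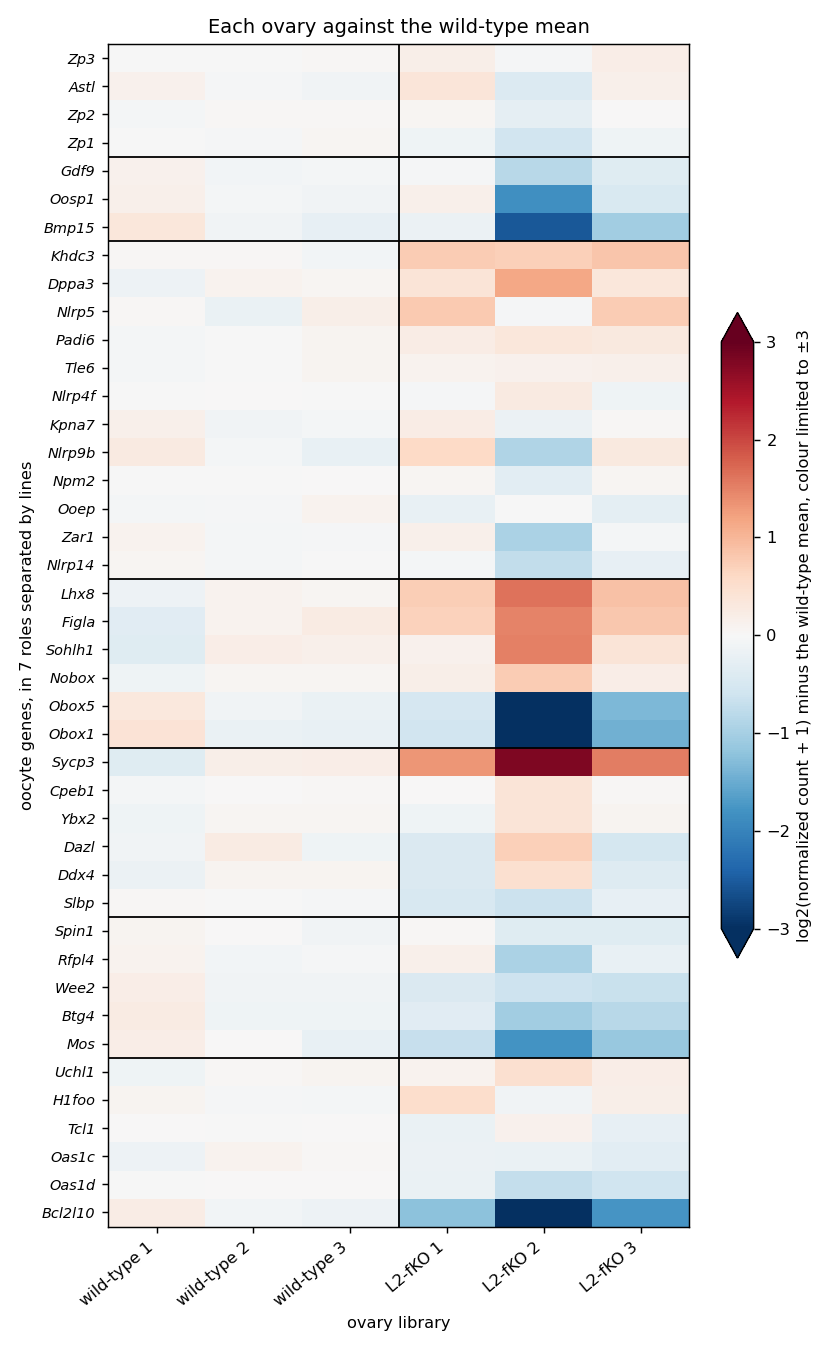
Log2(normalized count + 1) of each oocyte gene (rows, in 7 roles) in each ovary (columns), minus the mean of the wild-type ovaries, with red for higher and blue for lower. The strongest colours of most rows are in the column of L2-fKO ovary 2, and *Khdc3* has nearly the same colour in all 3 L2-fKO ovaries.

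Since ZFP36L2 acts through AU-rich elements, the 3′UTRs of the oocyte genes were searched for UAUUUAU and AUUUA on the transcript strand; the 7-mer holds the pentamer. With 1 3′UTR per gene, the longest that GENCODE M21 annotates (GRCm38), 7 of the 42 oocyte genes (16.7%) held the 7-mer, against 29.3% of 15415 genes tested in the ovary, and 23 (54.8%) held the pentamer, against 68.8%. The 3′UTRs of the oocyte genes were also shorter, with a median of 417 against 1133 nucleotides. With the 3′UTR of median length in place of the longest, the shares were 16.7% against 21.1% for the 7-mer and 50% against 56.0% for the pentamer. The sites are shown because they are the sequence that ZFP36L2 is known to bind, with the 7-mer in capitals, 10 bases on either side in lower case, and the position of its 5′ base counted from the start of the 3′UTR:
*Bmp15*, base 1453 of 1523: aauaccccccUAUUUAUauauuuguau
*Cpeb1*, base 347 of 1315: cacuuggguuUAUUUAUuaaagcgcuu
*Dazl*, base 445 of 1854: uuguacuuuaUAUUUAUuauuugucua
*Dazl*, base 654 of 1854: acauauauccUAUUUAUuugguuggga
*Nlrp4f*, base 411 of 588: uuuguuggauUAUUUAUuggaguuaaa
*Obox5*, base 376 of 803: cuuccucuaaUAUUUAUgcaugcaaag
*Ooep*, base 1389 of 1446: ccagaauuugUAUUUAUuagccuauac
*Spin1*, base 569 of 3385: aagucagucaUAUUUAUaauaugccug

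These 7 genes lie at chrX:6314107-6320721 (*Bmp15*), chr7:81347026-81455465 (*Cpeb1*), chr17:50279395-50293636 (*Dazl*), chr13:65177111-65205977 (*Nlrp4f*), chr7:15750131-15759800 (*Obox5*), chr9:78376109-78378725 (*Ooep*) and chr13:51100880-51152546 (*Spin1*) of GRCm38, and each site is in the 3′UTR. None of the 7 had an adjusted p below 0.05. Their log2 fold changes were -1.25 for *Bmp15*, 0.15 for *Cpeb1*, -0.07 for *Dazl*, 0.03 for *Nlrp4f*, -1.70 for *Obox5*, -0.18 for *Ooep* and -0.23 for *Spin1*. Of the genes described below that were higher in every L2-fKO ovary, *Khdc3* has 1 pentamer in its 3′UTR of 246 nucleotides and no 7-mer. *Sycp3* has 4 pentamers in 420 nucleotides, *Lhx8* has 3 in 665, and *Figla* has none in 120. Of those that were lower in every L2-fKO ovary, *Btg4* has 4 pentamers in 521 nucleotides, *Slbp* 2 in 757, *Obox5* 2 in 803 and *Bcl2l10* 1 in 499. *Mos*, *Wee2* and *Obox1*, also lower, have none.

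None of the zona genes passed the test in the ovary, and their fold changes were among the smaller ones. ZP1, ZP2 and ZP3 are the glycoproteins of the mouse zona pellucida, and ASTL (ovastacin) is the protease that cleaves ZP2 after fertilization. *Zp1* had normalized counts of 13851, 13634 and 14528 in the wild-type ovaries and 12831, 9374 and 12776 in the L2-fKO ovaries. *Zp2* had 47937, 50788 and 50933 in the wild-type ovaries and 52249, 41142 and 50346 in the L2-fKO ovaries. *Zp3* had 26483, 26577 and 27450 in the wild-type ovaries and 30348, 26296 and 30841 in the L2-fKO ovaries. The *Zp1* counts were lower in every L2-fKO ovary, those of *Zp2* and *Zp3* overlapped, and L2-fKO ovary 2 was the lowest library for all 3 and for *Astl*. The log2 fold changes were -0.28 (95% interval -0.57 to 0.01), -0.07 (-0.32 to 0.19) and 0.12 (-0.08 to 0.31), with adjusted p = 0.318, 0.800 and 0.536 by limma. Without L2-fKO ovary 2 they were -0.13, 0.041 and 0.19, and *Zp3* was then higher in both L2-fKO ovaries than in every wild-type ovary (adjusted p = 0.204). *Astl*, at 7278 to 8507 in the wild-type and 5877 to 9998 in the L2-fKO ovaries, had a log2 fold change of 0.03 (-0.39 to 0.46), which was 0.25 without L2-fKO ovary 2, with no overlap (adjusted p = 0.238). The summed level of the 4 genes was 2664 ± 102 RPM in wild-type and 2582 ± 313 in L2-fKO ovaries (SD, n = 3 and 3), with 2224 in L2-fKO ovary 2 and 2722 and 2801 in the others.

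FIGLA is known to bind E-boxes, of the form CANNTG, in zona promoters. CANNTG is its own reverse complement, so both strands give the same matches. It was found between 250 bases before and 50 after the start in 29 of the 32 oocyte genes (90.6%) that have an entry in the RefSeq promoter table (GRCm38.p6), against 75.0% of all genes. The sites of *Zp3* are shown as the promoter of the zona gene with the highest level per length, with the E-box in capitals, 10 bases on either side, and its distance from the RefSeq start of the gene. A match is a description of the letters and not of binding:
*Zp3*, E-box 181 bases before the start, chr5:135979914-135979939, plus strand: gaataggaatCACGTGgagtgtcttt
*Zp3*, E-box 134 bases before the start, chr5:135979961-135979986, plus strand: atcgttggttCAGATGaggtttgagg
*Zp3*, E-box 55 bases before the start, chr5:135980040-135980065, plus strand: agagggaattCAGGTGggagggtggg
*Zp3*, E-box 7 bases after the start, chr5:135980102-135980127, plus strand: attctgagccCAGCTGtactccaggc

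The oocyte-secreted factors were lowest in L2-fKO ovary 2. GDF9 and BMP15 are TGF-β family ligands through which the oocyte drives granulosa cell growth and cumulus function, and OOSP1 is an oocyte-secreted protein. *Gdf9* had normalized counts of 23700, 20562 and 20703 in the wild-type ovaries and 21010, 12109 and 16777 in the L2-fKO ovaries. *Bmp15* had 2929, 2142 and 1934 in the wild-type ovaries and 2050, 391 and 1117 in the L2-fKO ovaries. For both genes L2-fKO ovary 1 was within the wild-type range and L2-fKO ovaries 2 and 3 were below it. The log2 fold change of *Gdf9* was -0.41 ± 0.19 (SE, adjusted p = 0.317 by limma) and that of *Bmp15* -1.25 ± 0.53 (adjusted p = 0.290), and without L2-fKO ovary 2 they were -0.20 (adjusted p = 0.432) and -0.60 (0.323). *Oosp1*, at 1268 to 1520 in the wild-type ovaries, had 1508, 379 and 998 in the L2-fKO ovaries and a log2 fold change of -0.71 (adjusted p = 0.461), which was -0.15 without L2-fKO ovary 2. The summed level of the 3 genes was 745, 649 and 660 RPM in the wild-type and 634, 346 and 516 in the L2-fKO ovaries. It was lower in every L2-fKO ovary, but with TMM-scaled reads L2-fKO ovary 1 (657) was above wild-type ovaries 2 and 3 (646 and 643), and the mean of the log2 values overlapped too.

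*Khdc3* had the lowest p of the oocyte genes. It lies at chr9:73101836-73104438 of GRCm38 and encodes FILIA, a member of the subcortical maternal complex that the oocyte assembles beneath its membrane and that the early embryo needs. *Khdc3* had normalized counts of 3928, 3896 and 3620 in the wild-type ovaries and 6425, 6252 and 6814 in the L2-fKO ovaries. The groups did not overlap, L2-fKO ovary 2 was like the other L2-fKO ovaries, and the level was 1.70 times that of wild type. The log2 fold change was 0.77 ± 0.07 (SE, n = 3 and 3, 95% interval 0.61 to 0.93) with adjusted p = 0.00429 by limma, short of the fold limit of a call. With any ovary left out it was 0.73 to 0.80, with an adjusted p of 0.00310 to 0.0427.

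No other gene of the subcortical maternal complex had an adjusted p below 0.05 by limma with all ovaries. NLRP5 (MATER), OOEP (FLOPED), TLE6 and KHDC3 are its core members and PADI6 works with it in the cytoplasmic lattices. *Nlrp5* had normalized counts of 35628, 30065 and 39329 in the wild-type ovaries and 59802, 33735 and 58890 in the L2-fKO ovaries. L2-fKO ovaries 1 and 3 were above every wild-type ovary and L2-fKO ovary 2 was within their range, and the log2 fold change was 0.50 ± 0.23 (adjusted p = 0.320) with all ovaries and 0.77 (adjusted p = 0.0267 by limma) without L2-fKO ovary 2. *Ooep* had 8838, 8999 and 10003 in the wild-type ovaries and 7930, 9209 and 7542 in the L2-fKO ovaries. Here L2-fKO ovaries 1 and 3 were the lowest libraries, and the log2 fold change was -0.18 ± 0.09 (adjusted p = 0.394) and, without L2-fKO ovary 2, -0.26 (0.138). *Tle6* was at 20677 to 22747 in the wild-type and 23113 to 23900 in the L2-fKO ovaries, a log2 fold change of 0.13 (adjusted p = 0.399). *Padi6* had 89723, 92491 and 99980 in the wild-type ovaries and 109950, 118111 and 115788 in the L2-fKO ovaries. These groups did not overlap, and the log2 fold change was 0.29 ± 0.10 (adjusted p = 0.206 by limma and 0.0172 by DESeq2).

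Of the other maternal-effect genes, *Dppa3* (STELLA, which protects the maternal genome from demethylation) had 5960, 7131 and 6926 in the wild-type ovaries and 8748, 14961 and 8394 in the L2-fKO ovaries. It was higher in every L2-fKO ovary and highest in L2-fKO ovary 2, with a log2 fold change of 0.63 (adjusted p = 0.201) that was 0.37 without that library. *Nlrp14* was lower in every L2-fKO ovary, at 51557 to 56426 in wild-type and 32238 to 51445 in L2-fKO ovaries, a log2 fold change of -0.35 (adjusted p = 0.336) that was -0.16 without L2-fKO ovary 2. The groups overlapped for *Npm2* (nucleoplasmin), *Zar1*, *Nlrp4f*, *Nlrp9b* and the oocyte importin *Kpna7*, with log2 fold changes from -0.29 to 0.03 and adjusted p values of 0.607 or more. Without L2-fKO ovary 2 the remaining L2-fKO ovaries were both above wild type for *Npm2* (0.065) and *Nlrp9b* (0.44) and both below it for *Nlrp4f* (-0.086), with adjusted p of 0.205 or more, while *Zar1* (0.037) and *Kpna7* (0.13) still overlapped. *Nlrp4f* and *Nlrp9b* have near-identical relatives that reads can match, and the study does not describe the read counting of the ovaries, so their values are uncertain. The 12 maternal-effect genes summed to 6677, 6622 and 7338 RPM in the wild-type ovaries and 7734, 7113 and 8087 in the L2-fKO ovaries. L2-fKO ovaries 1 and 3 were above every wild-type ovary, and L2-fKO ovary 2 was within the wild-type range.

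None of the 6 oocyte transcription factors had an adjusted p below 0.05 by limma with all ovaries, and their log2 fold changes ran from -2.11 to 1.08. FIGLA is needed to form primordial follicles, and LHX8, NOBOX and SOHLH1 for oocyte growth thereafter. *Figla* had normalized counts of 866, 1177 and 1298 in the wild-type ovaries and 1772, 3084 and 1928 in the L2-fKO ovaries. *Lhx8* had 1370, 1638 and 1586 in the wild-type ovaries and 2538, 4752 and 2808 in the L2-fKO ovaries. *Nobox* had 4033, 4569 and 4592 in the wild-type ovaries and 4923, 7411 and 5054 in the L2-fKO ovaries. All 3 genes were higher in every L2-fKO ovary and highest in L2-fKO ovary 2, which was 1.49 to 1.78 times the mean of the other L2-fKO ovaries. The log2 fold change of *Lhx8* was 1.08 ± 0.22 (SE, adjusted p = 0.0667 by limma), and without L2-fKO ovary 2 it was 0.81, with an adjusted p of 0.0107. That of *Figla* was 1.00 ± 0.23 (adjusted p = 0.0905), and without that library 0.75 (0.0761). *Nobox* had 0.37 ± 0.16 (adjusted p = 0.286), and 0.18 (0.275) without it. DESeq2 called *Lhx8* (log2 fold change 1.14, adjusted p = 4.32e-05) and *Figla* (1.02, 0.000671) as higher. *Sohlh1* had 1934, 2863 and 2784 in the wild-type ovaries and 2730, 7144 and 3250 in the L2-fKO ovaries, so that L2-fKO ovary 1 was within the wild-type range, and its log2 fold change of 0.68 (adjusted p = 0.371) was 0.26 without L2-fKO ovary 2.

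*Obox1* and *Obox5*, homeobox genes of the oocyte-specific cluster on chromosome 7, had log2 fold changes below 0. *Obox1* had 894, 592 and 579 in the wild-type ovaries and 456, 33 and 247 in the L2-fKO ovaries. *Obox5* had 998, 740 and 692 in the wild-type ovaries and 565, 83 and 312 in the L2-fKO ovaries. Both were lower in every L2-fKO ovary, with the lowest value in L2-fKO ovary 2. The log2 fold changes were -2.11 ± 0.85 (adjusted p = 0.270) and -1.70 ± 0.61 (adjusted p = 0.225 by limma), and without L2-fKO ovary 2 they were -1.003 and -0.927 (adjusted p = 0.144 and 0.139). The reads of the *Obox* copies can be split between near-identical genes, which makes their values uncertain. The sum of the 6 transcription factors was 299 ± 28.1 RPM in wild-type and 437 ± 147 in L2-fKO ovaries (SD, n = 3 and 3). This sum was higher in every L2-fKO ovary, while the mean of the log2 values of the 6 genes was 0.11 lower in L2-fKO than in wild type.

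*Sycp3* had the largest positive fold change among the oocyte genes. SYCP3 forms the lateral elements of the synaptonemal complex, the axis along which chromosomes pair in meiotic prophase, and the gene lies at chr10:88459569-88473236 of GRCm38. *Sycp3* had normalized counts of 915, 1333 and 1366 in the wild-type ovaries and 2959, 8334 and 3417 in the L2-fKO ovaries. Every L2-fKO ovary was above every wild-type ovary, and L2-fKO ovary 2 had 2.61 times the mean of the other L2-fKO ovaries. The log2 fold change was 1.89 ± 0.37 (SE, n = 3 and 3, 95% interval 1.02 to 2.75) with adjusted p = 0.0600 by limma. Without L2-fKO ovary 2 it was 1.42, with an adjusted p of 0.0124, past both limits of a call. DESeq2 with all ovaries also called it (2.03, adjusted p = 0.00520). The other genes of meiotic prophase, a list of which 19 were tested, gave 0 calls in either direction by limma, and 3 of the 19 had an unadjusted p below 0.05, all higher, where 9.88% of all genes were higher at that limit and 6.95% lower. Their median log2 fold change was 0.30 with all ovaries and -0.01 without L2-fKO ovary 2.

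Of the germ cell RNA-binding genes, *Ddx4*, *Dazl*, *Cpeb1* and *Ybx2* were highest in L2-fKO ovary 2. DDX4 is the germ cell RNA helicase VASA, DAZL and CPEB1 are translational regulators of stored mRNA, and YBX2 (MSY2) packages maternal mRNA. *Ddx4* had normalized counts of 2913, 3488 and 3454 in the wild-type ovaries and 2432, 4540 and 2519 in the L2-fKO ovaries. *Dazl* had 1184, 1505 and 1153 in the wild-type ovaries and 948, 2093 and 888 in the L2-fKO ovaries. For both genes L2-fKO ovaries 1 and 3 were the lowest libraries. The log2 fold changes were -0.11 ± 0.23 (95% interval -0.64 to 0.42, adjusted p = 0.839) and -0.07 ± 0.31 (-0.80 to 0.65, adjusted p = 0.927 by limma). Without L2-fKO ovary 2 they were -0.40 (adjusted p = 0.0821) and -0.47 (0.121). *Cpeb1* and *Ybx2* overlapped between the groups, with log2 fold changes of 0.15 and 0.11 (adjusted p = 0.518 and 0.719) that were 0.031 and -0.029 without L2-fKO ovary 2. *Slbp*, which encodes the protein that binds the stem-loop of histone mRNAs, had 4682, 4572 and 4490 in the wild-type ovaries and 3265, 2947 and 3852 in the L2-fKO ovaries. It was lower in every L2-fKO ovary, at 73.2% of wild type, with a log2 fold change of -0.46 ± 0.10 (adjusted p = 0.0790 by limma and 0.00695 by DESeq2), which was -0.37 without L2-fKO ovary 2. *Slbp* was also abundant in the spleen, at 8974 to 17827 counts, so its level in the whole ovary need not be that of oocytes.

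The 5 genes of meiotic arrest and maturation among the 42 had log2 fold changes below 0, and none had an adjusted p below 0.05 by limma with all ovaries. MOS is the kinase that keeps the mature egg arrested in metaphase, WEE2 is the oocyte kinase that holds CDK1 inactive, and BTG4 directs the clearance of maternal mRNA. *Mos* had normalized counts of 1245, 1079 and 930 in the wild-type ovaries and 665, 310 and 486 in the L2-fKO ovaries. *Wee2* had 1802, 1467 and 1470 in the wild-type ovaries and 1168, 1014 and 996 in the L2-fKO ovaries. *Btg4* had 1407, 1081 and 1074 in the wild-type ovaries and 935, 572 and 663 in the L2-fKO ovaries. All 3 were lower in every L2-fKO ovary, and for *Wee2* the 3 L2-fKO ovaries lay close together. By limma *Wee2* had a log2 fold change of -0.57 ± 0.11 (adjusted p = 0.0565), *Mos* -1.21 ± 0.26 (0.0756) and *Btg4* -0.73 ± 0.19 (0.123). Without L2-fKO ovary 2 the values were -0.54 (0.0761), -0.92 (0.0453) and -0.58 (0.159). DESeq2 with all ovaries gave an adjusted p of 0.000955 for *Wee2*, 0.000357 for *Mos* and 0.0144 for *Btg4*. It gave 0.666 for *Rfpl4* and 0.461 for *Spin1*. Without L2-fKO ovary 1, *Mos* passed both limits of a call (-1.47, adjusted p = 0.0409 by limma), as 0.262% of all genes did on the lower side. *Rfpl4* and *Spin1* overlapped between the groups, at -0.34 and -0.23 (adjusted p = 0.542 and 0.392), and -0.030 and -0.16 without L2-fKO ovary 2. The 5 genes summed to 709, 675 and 644 RPM in the wild-type and 637, 482 and 509 in the L2-fKO ovaries. The sum was lower in every L2-fKO ovary, but with TMM-scaled reads L2-fKO ovary 1 (659) was above wild-type ovary 3 (628).

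Among the other oocyte-enriched genes, *Bcl2l10* (DIVA), a BCL2 family gene of the oocyte at chr9:75347758-75351632, had the largest difference. It had normalized counts of 2928, 2371 and 2261 in the wild-type ovaries and 1066, 293 and 733 in the L2-fKO ovaries. Every L2-fKO ovary was well below every wild-type ovary, at 27.7% of wild type on average, and L2-fKO ovary 2 was the lowest. The log2 fold change was -2.03 ± 0.42 (SE, n = 3 and 3, 95% interval -3.002 to -1.06) with adjusted p = 0.0687 by limma. Leaving out L2-fKO ovary 2 gave -1.501 (adjusted p = 0.00972 by limma), and leaving out L2-fKO ovary 1 gave -2.43 (0.0407), each past both limits of a call. *Oas1d* and *Oas1c*, of the oligoadenylate synthetase cluster, were lower in every L2-fKO ovary, with log2 fold changes of -0.50 (adjusted p = 0.118) and -0.23 (0.239), or -0.39 and -0.24 without L2-fKO ovary 2, and copies of this cluster can share reads. *Uchl1*, a deubiquitinase abundant in oocytes and neurons, was higher in every L2-fKO ovary, at 0.27 (adjusted p = 0.302), or 0.15 without L2-fKO ovary 2. *H1foo* (the oocyte linker histone) and *Tcl1* overlapped, at 0.20 and -0.10, and without L2-fKO ovary 2 they did not, at 0.36 and -0.22 (adjusted p = 0.159 and 0.113).

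**Figure D3:**
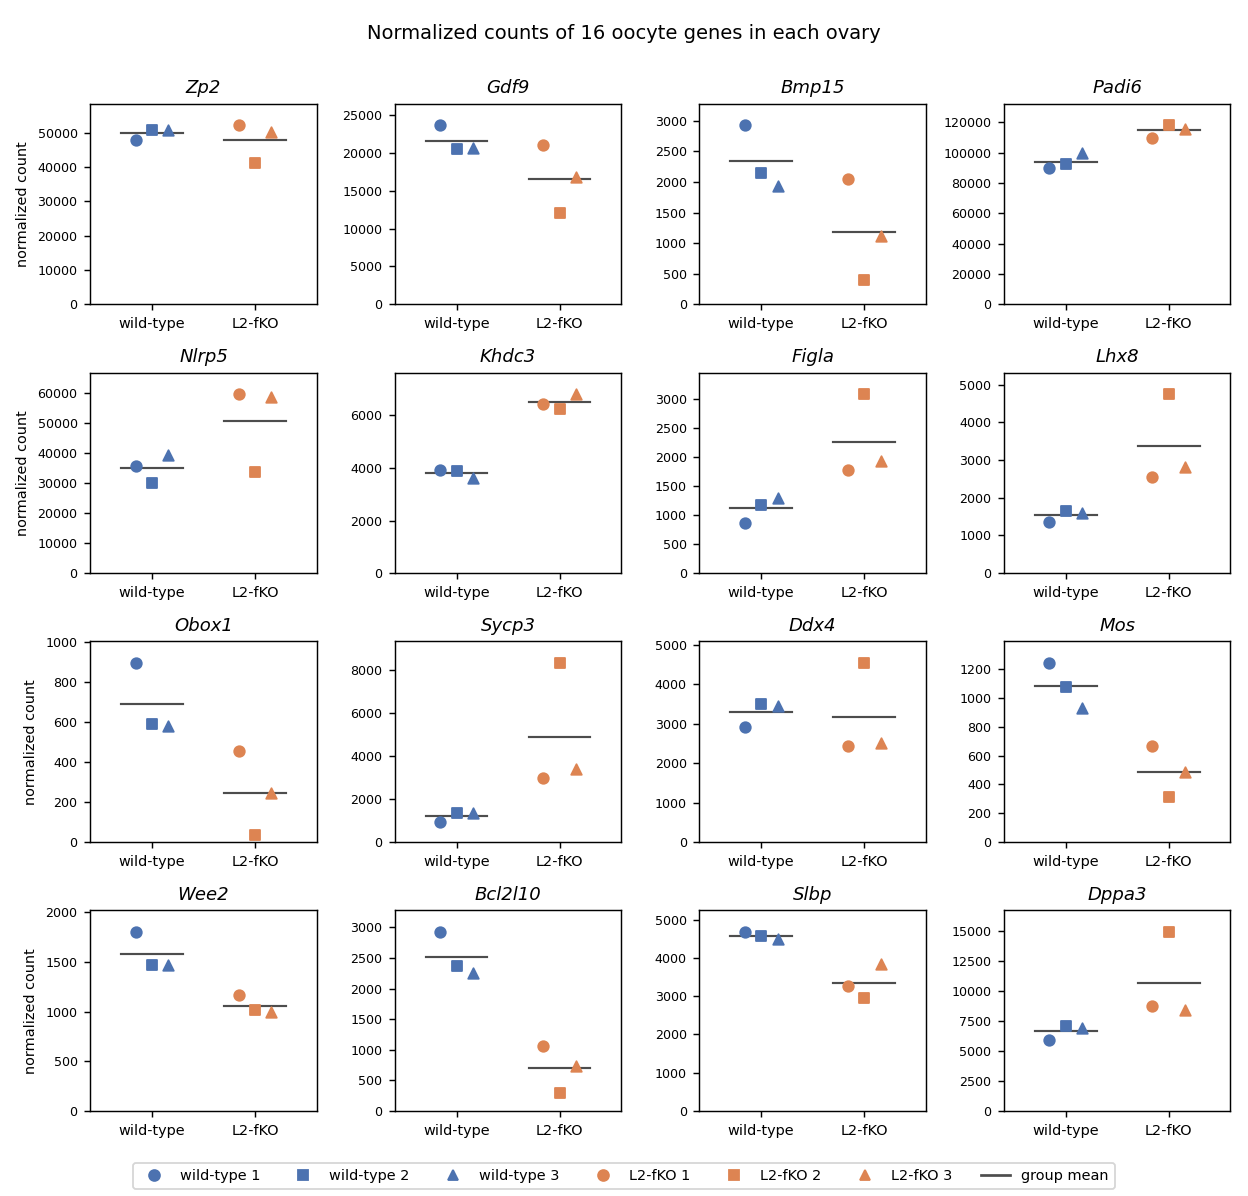
Normalized counts (y axis, from 0) of 16 oocyte genes in each of the 3 wild-type (blue) and 3 L2-fKO (orange) ovaries, with 1 marker shape per library number and a line at the group mean. *Khdc3* separates the genotypes with little spread, while for *Sycp3*, *Figla*, *Lhx8* and *Dppa3* the square of L2-fKO ovary 2 is far above, and for *Bmp15*, *Obox1* and *Bcl2l10* below, the other L2-fKO ovaries.

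Compared per length, as normalized count per kilobase of exon, the levels of the oocyte genes in the wild-type ovary spanned from *Padi6*, at 37150 ± 2096 (SD, n = 3), to *Dazl*, at 335 ± 51.0. *Zp3* (20285 ± 403), *Zp2* (18313 ± 620), *Uchl1* (15607 ± 1099), *Nlrp14* (15256 ± 688) and *Gdf9* (10662 ± 873) followed *Padi6*. *Uchl1* and *Nlrp14* differed by less than their spread, and so did *Dazl*, *Obox1* (362 ± 94.0) and *Obox5* (379 ± 77.0) at the low end. Of the 5 genes with the largest fold changes, *Bcl2l10* was 20th in this order, *Sycp3* 30th, *Bmp15* 32nd, *Obox5* 40th and *Obox1* 41st of 42.

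A further list of 44 oocyte genes, not among the 42, was set beside them, and 41 of these were tested. Of the 41, 1 was called higher and 2 lower, against 0.73% and 0.227% of all genes, and 18 had groups that did not overlap, 6 higher and 12 lower, against 13.2% and 12.0%. *Pabpn1l*, which encodes an embryonic poly(A)-binding protein that acts in the clearance of maternal mRNA, had normalized counts of 653, 433 and 487 in the wild-type ovaries and 3.58, 2.06 and 4.55 in the L2-fKO ovaries. It was almost absent from all 3 L2-fKO ovaries, with as few as 2 reads in a library, and its log2 fold change of -6.92 ± 0.30 (adjusted p = 0.000578 by limma) had the lowest p of the 18504 genes. *Izumo1r* (JUNO, the egg receptor for sperm IZUMO1) had 465, 386 and 409 in the wild-type and 189, 146 and 198 in the L2-fKO ovaries, and it was lower by limma (-1.25, adjusted p = 0.0157), a call lost without any 1 of the wild-type ovaries (adjusted p = 0.0843 to 0.0939). *Nlrp4c* had 870, 804 and 892 in the wild-type and 1649, 1958 and 1708 in the L2-fKO ovaries, and it was higher (1.05, adjusted p = 0.00430). Its log2 fold change was 0.97 without L2-fKO ovary 2, short of the fold limit of a call. *Nlrp4c* is a relative of *Nlrp4f*, and its value carries the same uncertainty. *Taf4b*, a TFIID subunit of germ cells, followed at 0.57 (adjusted p = 0.0372, and 0.0460 to 0.179 with an ovary left out), and *Gpr3*, the receptor that maintains meiotic arrest, at 0.67 (0.0709). The list had a median log2 fold change of -0.50, and of -0.14 without L2-fKO ovary 2, which was the lowest library for 31 of the 41.

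**Figure D4:**
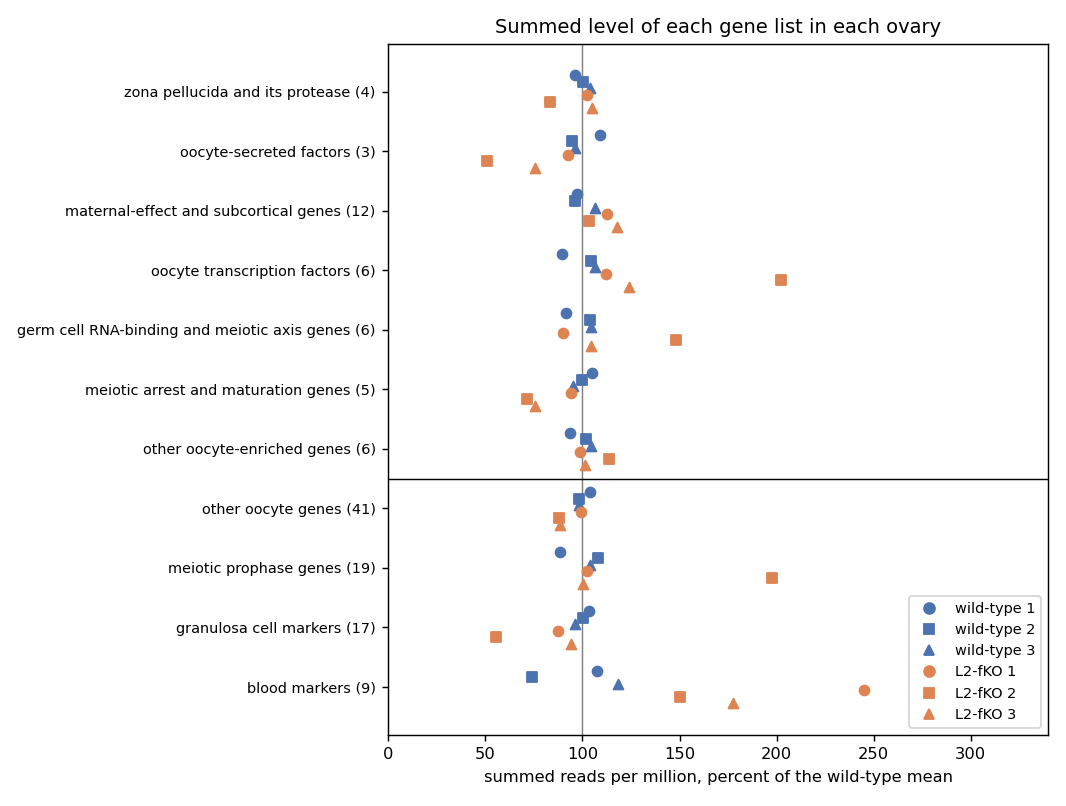
Summed RPM of each gene list in each ovary (x axis, in percent of the wild-type mean; number of genes in brackets), with wild-type ovaries in blue and L2-fKO ovaries in orange; the oocyte roles are above the line and other lists below it. L2-fKO ovary 2 lies far to the right for the transcription factors and the meiotic prophase genes and to the left for the secreted factors and the granulosa cell markers.

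In the spleen, a tissue without oocytes, most of the oocyte genes were at or near 0. Of the 42, 3 had 0 counts in all 8 spleens (*Figla*, *Nlrp14* and *Bcl2l10*), and 33 in all were below the filter of at least 10 counts in at least 4 libraries, with at most 21 counts in any library. Of the 9 that were tested, *Slbp*, at 8974 to 17827 counts, and *Spin1*, at 2387 to 4221, were the most abundant. *Gdf9* had 3 to 23 counts, *Ybx2* 10 to 39, *Oosp1* 17 to 48, *Tle6* 44 to 131, *Uchl1* 84 to 303 and *Oas1c* 79 to 289.

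*Ddx4* was lower in the L2-fKO spleen. It had 101, 107, 165 and 187 counts in the wild-type spleens and 28, 31, 38 and 36 in the L2-fKO spleens. Every L2-fKO spleen was below every wild-type spleen, with 24.4% of the wild-type level after TMM normalization (139 ± 44.7 in wild type and 33.9 ± 5.38 in L2-fKO, SD, n = 4 and 4). The log2 fold change was -2.04 ± 0.27 (SE, adjusted p = 0.00144 by edgeR's quasi-likelihood test), and with any spleen left out it was -2.18 to -1.86 with an adjusted p of 0.00147 to 0.00916. *Ddx4* was the 1 oocyte gene called in the spleen, lower, where 3.11% of all genes were called lower and 2.9% higher, and it was the 1 of the 9 whose groups did not overlap, against 20.4% of all genes. In the ovary its log2 fold change was -0.11, and the difference between the organs was not tested. The study says that the cell make-up of the L2-fKO spleens seems to differ from wild type. In RNA from whole spleens, fewer cells that express *Ddx4* and less *Ddx4* RNA per cell cannot be told apart.

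*Oas1c* had 289, 241, 207 and 264 counts in the wild-type spleens and 86, 105, 79 and 272 in the L2-fKO spleens. L2-fKO spleen 4 was within the wild-type range and the other L2-fKO spleens were far below it, so that the log2 fold change was -0.91 (adjusted p = 0.0829 by edgeR) with all spleens and -1.34 (adjusted p = 0.00230) without L2-fKO spleen 4, past both limits of a call, as 3.97% of all genes then were on the lower side. The other 7 had log2 fold changes from -0.95 (*Ybx2*) to 0.18 (*Spin1*) and adjusted p values of 0.144 or more. *Slbp*, which was at 73.2% of wild type in the ovary, was at 85.7% in the spleen with overlapping groups (adjusted p = 0.562).

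**Figure D5:**
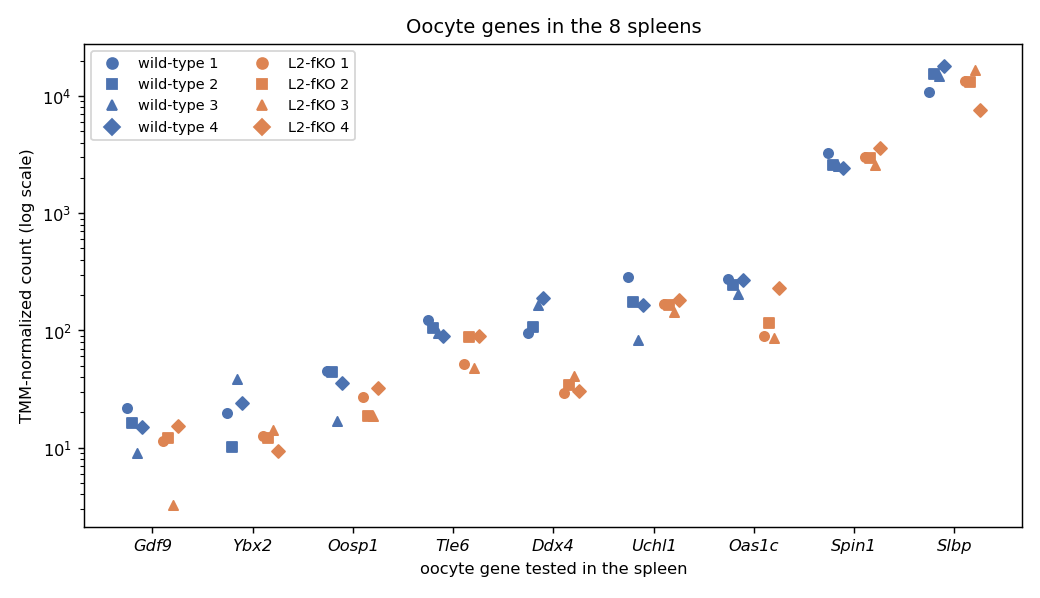
TMM-normalized counts (log axis) of the 9 oocyte genes tested in the spleen, with 4 wild-type (blue) and 4 L2-fKO (orange) libraries per gene. The groups separate for *Ddx4*, and for *Oas1c* the diamond of L2-fKO spleen 4 lies among the wild-type values.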

How the data were processed

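For the spleen the authors deposited raw counts: reads were trimmed with Trimmomatic 0.36, mapped with STAR 2.5.2b to GRCm38, and unique exonic reads were counted by strand with featureCounts (Subread 1.5.2). For the ovary the authors deposited signal values, which are counts divided by a size factor per library; 100% were whole multiples (tolerance 0.001) of the value of 1 read, so reads were recovered. The authors' fold changes and p-values, made with DESeq2, were not used, and for the ovary the study names poly(A) libraries and the same limits on fold change and adjusted p, while its alignment and counting are described for the spleen.

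The ovary was tested with limma 3.58.1 (intensity trend) on log2(normalized count + 1), a scale that understates changes of low genes, for the 18504 genes that reached 10 in 3 or more libraries. The spleen was tested with edgeR 4.0.16 (quasi-likelihood, TMM) for the 16911 genes that reached 10 counts in 4 or more libraries. edgeR and DESeq2 1.42.0 on the recovered reads were alternatives, in R 4.3.3; other steps used Python 3.11.15, numpy 2.4.6 and pandas 2.3.3. All tests are two-sided. The fits were run on simulated counts with large changes, the same spread for all genes and no outlying library. How they perform on data like these was not tested. Replicate libraries differed by more than sampling noise (chi-square per degree of freedom 7.24 to 213). Whether animals share a litter is not labelled.

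The oocyte genes and all lists were chosen with earlier results of these data known. Values for every ovary are given for fixed representatives of each role, the 5 genes with the lowest p and the 5 with the largest fold change, and values for *Oosp1*, *Padi6*, *Dppa3*, *Sohlh1*, *Slbp*, *Mos* and *Btg4* were added after they had been seen. Genes of the other lists are named if called or among the lowest p values. RPM are recovered reads scaled to a common total. RefSeq promoters matched 32 of the 42 genes; *Zp1*, *Zp2*, *Gdf9*, *Npm2*, *Dppa3*, *Nlrp14*, *Mos*, *H1foo*, *Oas1d* and *Bcl2l10* had none.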

Additional observations from a re-analysis of the deposited data

How the results depend on the processing

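At these depths the oocyte genes had 32 to 122948 reads per ovary, and the spread between replicate ovaries was larger than sampling noise. Under another pseudocount, another filter, TMM or quantile scaling and edgeR, the ovary calls stayed within 1.5 times of the 135 genes called higher and 42 lower, and 0 oocyte genes were called. DESeq2 gave 286 and 121 genes with 3 and 2 oocyte genes (*Sycp3*, *Figla*, *Lhx8*; *Bcl2l10*, *Mos*), and the adjusted p alone gave 227 and 65 with 1 and 0. Leaving out an ovary gave 26 to 115 and 3 to 71 genes, with 0 to 1 and 0 to 2 oocyte genes, the most without L2-fKO ovary 1 or 2, and the fewest genes without a wild-type ovary. In the spleen the adjusted p alone gave 1166 genes higher and 1101 lower in place of 490 and 526, leaving out a spleen gave 331 to 574 and 328 to 659, and 1 to 2 oocyte genes were lower. The cause was not tested. The replicate block, with the label's number as the block, gave 187 and 81 genes in the ovary, and 2 oocyte genes higher (*Sycp3*, *Lhx8*) and 2 lower (*Bcl2l10*, *Mos*). With the adjusted p alone the block gave 4 oocyte genes higher and 4 lower, among 411 and 128 genes. Same-numbered ovaries had correlations of deviations of 0.38, 0.21 and 0.07, each the highest for its L2-fKO ovary. The other ovary pairs had -0.33 to 0.18, with 0.18 for wild-type ovary 3 and L2-fKO ovary 2. Same-numbered spleens had -0.30 to 0.18. Pairs are not labelled, so the main fits had no block, and the ovaries may still be paired by number. The study speaks of age-matched pairs for the spleens without tying them to these numbers, and whether other pairs exist was not tested. In the spleen the block turned *Uchl1* to 0.011. Values near 0 changed sign: with edgeR and DESeq2 *Dazl* (0.027, 0.032) and *Nlrp9b* (0.10, 0.11), and with an ovary left out *Astl* (-0.13 to 0.25), *Dazl* (-0.47 to 0.15), *Ddx4* (-0.40 to 0.047), *Kpna7* (-0.066 to 0.13), *Nlrp4f* (-0.086 to 0.11), *Nlrp9b* (-0.31 to 0.44), *Npm2* (-0.13 to 0.065), *Ybx2* (-0.029 to 0.23), *Zar1* (-0.50 to 0.037), *Zp2* (-0.13 to 0.041) and, with a spleen left out, *Uchl1* in the spleen (-0.34 to 0.23). With TMM scaling the sums of the secreted factors and of the maturation genes no longer separated the genotypes. The transcription factor sum became -0.11 as a mean of log2 values.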

Other observations

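Markers of the other cells of the ovary gave 0 calls by limma in each list at the limits used for the oocyte genes. All 17 granulosa cell markers had log2 fold changes below 0, with a median of -0.35 that was -0.05 without L2-fKO ovary 2, and 2 had an unadjusted p below 0.05 and were lower, where 6.95% of all genes were. *Inhbb*, the activin and inhibin beta B subunit, had -0.71 (adjusted p = 0.150), *Cyp19a1* (aromatase) -0.45 (0.290) and *Hsd17b1* -0.35 (0.356). Of the 8 theca and steroidogenic markers none had an unadjusted p below 0.05, and *Hsd3b1*, *Star* and *Insl3* had -0.37, 0.27 and 0.68 (adjusted p = 0.419, 0.610 and 0.662). The 8 surface epithelium markers gave none either, with *Upk3b*, *Krt8* and *Lhx9* at -0.35, 0.41 and 0.26 (0.436, 0.484 and 0.492), and 7 of them were highest in L2-fKO ovary 2. Without that library the median log2 fold change of the theca and steroidogenic markers moved from -0.03 to 0.51. That of the surface epithelium markers moved from 0.12 to -0.24. Of the 4 oviduct and mesonephric markers tested none had an unadjusted p below 0.05.

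Blood and vessel genes were on the higher side in the L2-fKO ovary. All 9 blood markers had positive log2 fold changes (median 0.82, 8 with an unadjusted p below 0.05, where 9.88% of all genes were higher), and their sum was 255, 175 and 280 RPM in the wild-type and 580, 355 and 420 in the L2-fKO ovaries, with no overlap. The alpha globin gene *Hba-a1* had 1.18 (adjusted p = 0.0698), *Csf1r* 0.50 (0.119) and *Adgre1* 0.68 (0.126), the last a pair of macrophage genes. Of the 5 endothelial markers 4 were higher in every L2-fKO ovary, where 13.2% of all genes were, and *Cdh5* (VE-cadherin) had 0.38 (adjusted p = 0.0424, and 0.0470 to 0.216 with an ovary left out). Of the 10 stroma markers *Pdgfrb*, the PDGF receptor of pericytes and stroma, had 0.63 (adjusted p = 0.0187, and 0.0215 to 0.0968 with an ovary left out). *Cdh5* and *Pdgfrb* were chosen after their values were seen. Reads of the globin copies can be shared between near-identical genes.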
